A study of Drosophila melanogaster with 4 samples.

Results

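The genes chinmo, br and Eip93F encode 3 transcription factors that mark successive stages of insect development, and their transcript levels were followed across 4 RNA libraries of Drosophila wing imaginal discs. The 3 genes were chosen by name, with their values in these libraries already known, from a table of 13990 genes. All 3 had a row in that table. These discs, the larval precursors of the wing and of the body wall around it, came from wandering third-instar larvae, and 80 to 100 discs of each genotype were pooled into 1 library. Every genotype carried GFP under en-GAL4, a driver active in the posterior compartment, so each library mixes posterior cells with the transgenes and anterior cells without them. The control expressed GFP alone (GFP). The others added the Hippo-pathway coactivator Yorkie (Yki), Yorkie with the ecdysone receptor coactivator Taiman (Yki+Tai), or Yorkie with an inverted repeat that targets tai transcript for RNA interference (Yki+Tai-IR). The unit is FPKM, fragments per kilobase of transcript and per unit of library size, which allows levels to be compared between genes. With 1 library per genotype no test is possible, and every difference describes these libraries. Where 4 levels follow each other they stand in this order, control first.

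The 3 factors belong to a network through which the steroid hormone ecdysone sets stage identity. Chinmo, a BTB-domain zinc finger protein, is present in young larval tissues and sustains their growth and larval character. Its level falls as ecdysone induces br, the Broad-Complex, a family of BTB zinc finger isoforms that specify the pupal stage. Eip93F (E93), a factor with a Pipsqueak-type DNA-binding domain, comes later and directs adult differentiation, and in the prepupal salivary gland it takes part in programmed cell death. The Taiman protein binds the ecdysone receptor and acts as its coactivator.

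The 3 genes are long and have several annotated transcripts. In dm6 coordinates, chinmo (FBgn0086758) lies on chromosome 2L from 1651258 to 1704682, on the plus strand, with 6 annotated transcripts of 4159 to 12385 nt. The gene br (FBgn0283451) lies on chromosome X from 1575132 to 1664869, on the plus strand, with 16 transcripts of 3375 to 9822 nt. Eip93F (FBgn0264490) lies on chromosome 3R from 21949114 to 22014539, on the plus strand, with 3 transcripts of 4438 to 12020 nt. The deposited values are 1 per gene, so isoforms, including the Broad isoforms, are not told apart. Exons of br overlap those of Mur2B on the opposite strand, and strand was not recorded, but Mur2B was listed at 0.108 to 0.412 FPKM in the 4 libraries. No other protein-coding gene of the table overlaps the 3 genes.

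Depth estimated from the spacing of low values was between 8.05 M and 12.5 M fragments per library. Transcript of yki stood at 71.5 FPKM in the control and at 2563 to 5034 in the 3 libraries with Yorkie, and the one with the construct against tai held 0.509 times the yki level of the Yki library. Transcript of tai was 50.4 times the Yki level in Yki+Tai and 0.916 times in Yki+Tai-IR. The posterior compartment genes en and inv were 1.94 and 2.20 times as high in Yki+Tai as in Yki, and the anterior gene ci was at 0.367 times. In Yki+Tai-IR, en and inv were at 0.732 and 0.963 times the Yki level and ci at 1.27 times. The en level was 43.2, 32.6, 63.2 and 23.9 FPKM, lowest in Yki+Tai-IR as that of br was. The part of the posterior share in the results for the 3 genes was not tested. The wing disc genes vg, nub and sd, picked out after their values were seen, stood at 42.2 to 122 FPKM in all libraries. They varied least in a list of 12 wing disc genes, so they do not show a constant wing disc content. Of the 12, 10 were lower in Yki+Tai than in Yki and 2 were higher, the latter en and hh. The gene ap, for example, stood at 99.3, 118, 68.0 and 102 FPKM.

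The larval factor chinmo was low in control discs and several-fold higher in each library with Yorkie. Its level was 1.25 FPKM in the control library and 8.21 with Yki alone. It was 9.21 FPKM with Taiman added and 8.18 with the construct against tai. The control library stood alone at the low end, and the 3 Yorkie libraries lay close together. These levels rest on an estimated 123, 954, 1402 and 827 fragments when the longest transcript is used, and on 39.9, 309, 455 and 268 with the shortest. The ratio to GFP was 6.55 in Yki, with a 95% counting interval of 5.42 to 7.96 from the longest transcript and 4.68 to 9.30 from the shortest. With Taiman added it was 7.35 (6.10 to 8.90), and with the construct against tai 6.53 (5.39 to 7.95). These 3 ratios share the control library, so its value enters each of them. Because bulk libraries were used, more cells with chinmo transcript and more transcript per cell cannot be told apart, which holds for the other genes too.

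Among the Yorkie libraries chinmo differed little. With the construct against tai it was at 0.997 times the Yki level (0.907 to 1.09), although yki itself was at 0.509 times there. With Taiman added it was at 1.12 times the Yki level, with an interval of 1.03 to 1.22 from the longest transcript and 0.970 to 1.30 from the shortest. The second of these intervals includes 1, so a difference with added Taiman was not resolved at this depth. The library with Taiman added was at 1.13 times the one with the construct against tai (1.03 to 1.23, or 0.967 to 1.32 with the shortest transcript). The levels of Yki, Yki+Tai and Yki+Tai-IR are thus not separated from each other beyond counting error when the shortest transcript is used, while each is separated from GFP.

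**Figure D1:**
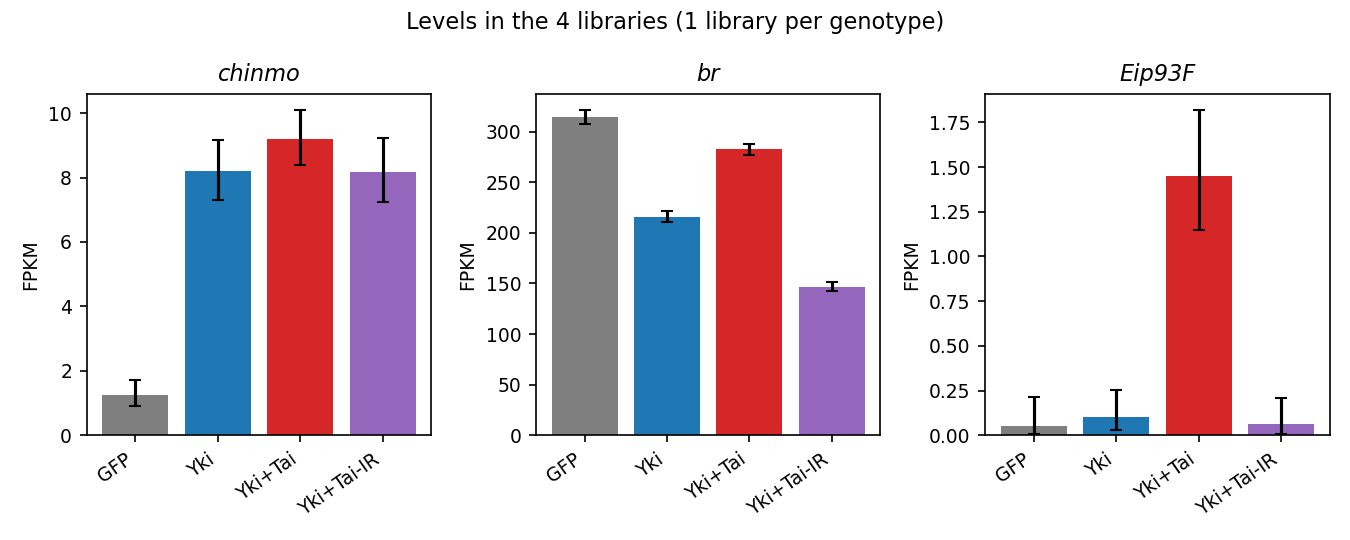
FPKM of chinmo, br and Eip93F (y axes, from 0, a scale for each gene) in the GFP, Yki, Yki+Tai and Yki+Tai-IR libraries; bars are single libraries and whiskers are exact Poisson 95% intervals on fragments estimated with the shortest transcript, counting error only. The control bar of chinmo is the low one at 1.25 FPKM, br is highest in GFP at 315 and lowest in Yki+Tai-IR at 147, and Eip93F stands at 1.45 in Yki+Tai and below 0.10 in the other libraries.

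The pupal factor br was by far the most abundant of the 3 in all libraries and was lowest in Yki+Tai-IR. Its level was 315 FPKM in the control library and 216 with Yki alone. It was 283 FPKM with Taiman added and 147 with the construct against tai. The control was highest and Yki+Tai second, with Yki below both and Yki+Tai-IR below Yki. Only 282 of the 13676 genes ranked, itself included, were at or above the br level in GFP, against 693 in Yki+Tai-IR. The ratio to GFP was 0.686 (0.673 to 0.699) with Yki alone, 0.898 (0.883 to 0.913) with Taiman added and 0.467 (0.457 to 0.477) with the construct against tai. Against Yki, br was at 1.31 times in Yki+Tai (1.29 to 1.33) and at 0.680 times in Yki+Tai-IR (0.665 to 0.696). Between the libraries with added Taiman and with the construct against tai, the ratio was 1.92 (1.88 to 1.97). Every neighbouring pair in the order of br levels is therefore separated beyond counting error, whereas the spread between pools of the same genotype is unknown.

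The adult factor Eip93F was near the limit of detection in 3 libraries and well above it in Yki+Tai. Its level was 0.0525 FPKM in the control library and 0.0997 with Yki alone. It was 1.45 FPKM with Taiman added and 0.0637 with the construct against tai. The 3 low values correspond to about 5.0, 11.2 and 6.24 fragments on the longest transcript, or 1.79, 4.02 and 2.23 on the shortest. The Yki+Tai value corresponds to 214 fragments on the longest transcript or 76.7 on the shortest. The limit set by 3 fragments is 0.0203 FPKM to 0.0316 FPKM across the libraries on the longest transcript and 0.0568 FPKM to 0.0881 FPKM on the shortest, so 2 of the 3 low values lie below the limit of their own library with the shortest transcript. Against Yki, the Yki+Tai level was 14.6 times as high (8.13 to 30.2, or 5.51 to 55.3 with the shortest transcript). Against Yki+Tai-IR it was 22.8 times (10.7 to 65.3, or 6.84 to 215), and against GFP 27.6 times (11.6 to 85.8, or 6.63 to 208). The 3 low libraries are not separated from each other: the ratio of Yki to GFP was 1.90 (0.595 to 6.82) and the library with the construct against tai was at 0.638 times Yki (0.190 to 1.85). Even in Yki+Tai the gene ranked 7568 of 13676, with 44.7% of genes below it.

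The balance between the 3 factors differed between the libraries. The br level was 251 times the chinmo level in GFP. With Yki alone it was 26.3 times, with Taiman added 30.7 times and with the construct against tai 17.95 times, so the control was set apart and Yki+Tai-IR had the smallest excess of br. The chinmo level was 23.9 times that of Eip93F in GFP, 82.3 times in Yki, 129 times in Yki+Tai-IR and 6.35 times in Yki+Tai. The first 3 of these quotients are uncertain. They divide by Eip93F levels from about 5.0, 11.2 and 6.24 fragments on the longest transcript, which were not separated from each other. Yki+Tai was the library in which all 3 factors were above 1 FPKM. In the other 3 libraries chinmo and br were above it and Eip93F was not.

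**Figure D2:**
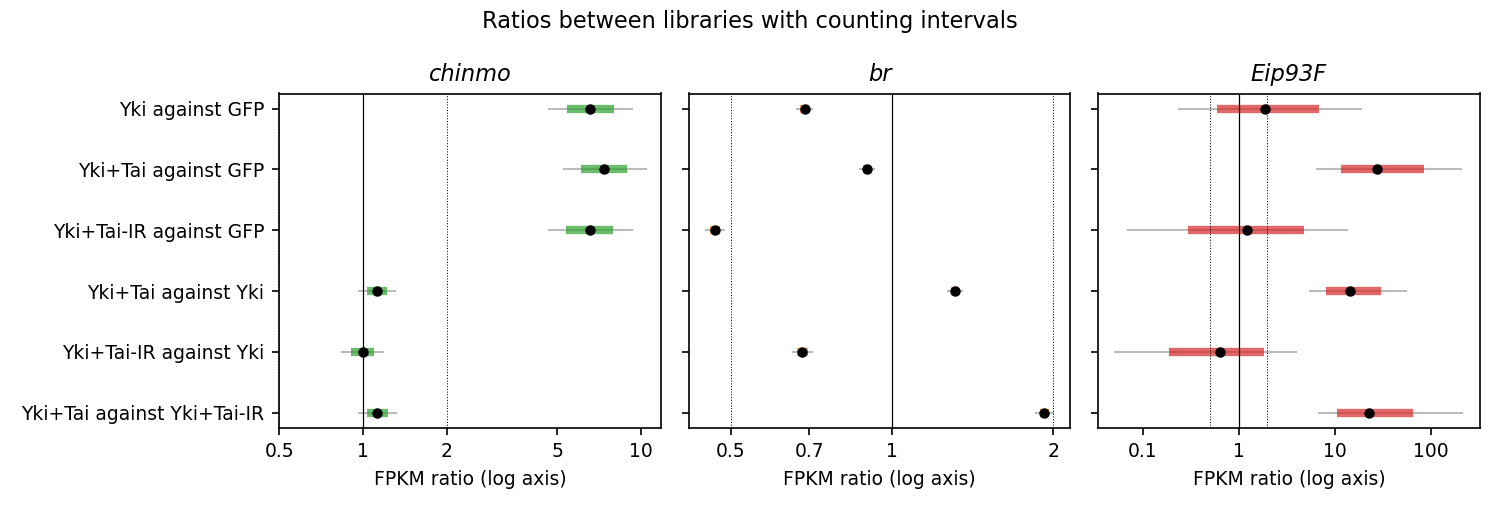
FPKM ratios of chinmo, br and Eip93F (x axes, log scale, a range for each gene) for the 6 pairs of libraries (rows); black points are ratios, coloured bars are 95% counting intervals from the longest transcript, thin grey bars those from the shortest, and dotted lines mark 2-fold. For chinmo the 3 pairs with GFP lie at 6.53 to 7.35 and the rest near 1, br runs from 0.467 to 1.92, and for Eip93F the 3 pairs that contain Yki+Tai lie at 14.6 to 27.6.

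To set these differences beside all genes, genes were counted when log2(FPKM + 1) differed by 1 or more, a scale that understates the change of low genes, among the 7806 genes that averaged at least 1 FPKM in the 4 libraries. Of the 3 genes, chinmo and br passed that mean, and Eip93F did not, with a mean of 0.417 FPKM. Against GFP, chinmo was higher by 2.03 in Yki, where 1.86% of all genes were 2-fold higher. With Taiman added it was higher by 2.18, where 3.96% of genes were 2-fold higher and 3.51% lower. With the construct against tai it was higher by 2.03, where 3.24% of genes were. In Yki against GFP 28 genes had a larger difference than chinmo, which ranked 29 from the top; against the same control it ranked 81 with Taiman added and 73 with the construct against tai. The gene br was past the limit in 1 of the 6 pairs, lower by 1.09 in Yki+Tai-IR than in GFP, where 1.55% of genes were 2-fold lower and br ranked 89 from the bottom. In Yki+Tai against Yki+Tai-IR it came close, higher by 0.94 at rank 320 from the top, with 3.72% of genes 2-fold higher and 4.43% lower. Eip93F, set on the same scale though below the mean filter, was higher in Yki+Tai by 1.22 than in GFP, by 1.16 than in Yki, where 3.45% of genes were 2-fold higher, and by 1.20 than in Yki+Tai-IR. The genes were chosen with these values known, so the shares are given as background and not as support.

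**Figure D3:**
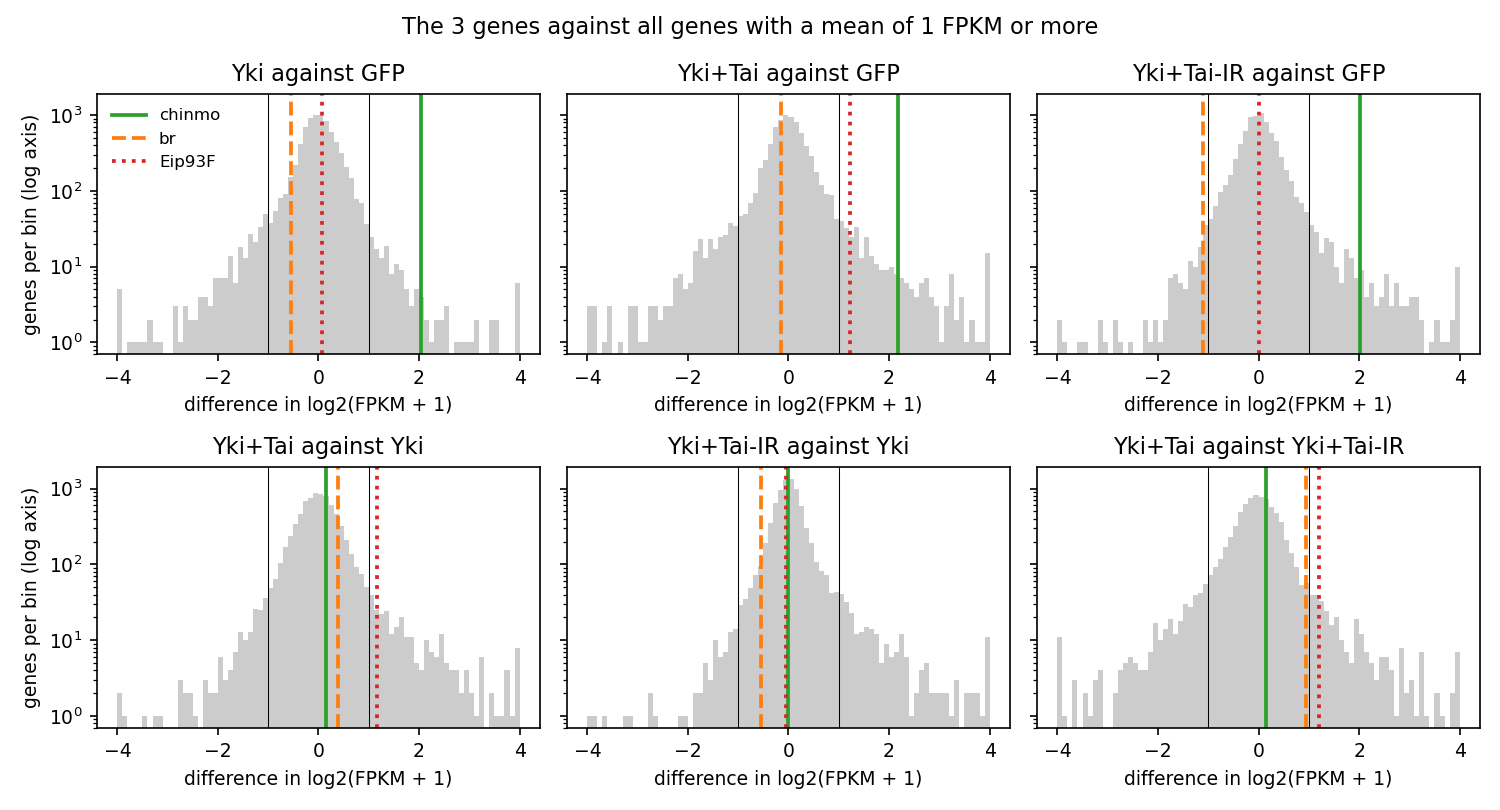
Histograms of the difference in log2(FPKM + 1) (x axes; values beyond 4 are drawn at 4) over 7806 genes (y axes, log scale) for the 6 pairs of libraries, with lines for chinmo, br and Eip93F and thin black lines at the 2-fold limit; Eip93F is itself not among the 7806. The chinmo line lies at 2.03 to 2.18 in the 3 panels with GFP and between the limits in the others, br lies below -1 in Yki+Tai-IR against GFP, and Eip93F lies above 1 in the 3 panels that contain Yki+Tai.

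Most genes for the ecdysone receptor and its cofactors stayed within 2-fold. The receptor gene EcR stood at 35.2, 42.9, 43.2 and 44.0 FPKM, and its partner usp at 36.2, 30.0, 38.1 and 34.9; both were picked out after their values were seen. EcR was lowest in the control, as chinmo was, at a far smaller difference of 0.28 to 0.31 on the log2(FPKM + 1) scale. In the list of 12 measured receptor and cofactor genes, 1 exceeded 2-fold upward in Yki against GFP and 0 downward, against 1.86% and 3.05% of all genes. In Yki+Tai 2 were higher than in Yki, of which tai is the transgene, and with the construct against tai 0 differed from Yki by 2-fold. The shares of all genes were 3.45% higher and 2.10% lower in the first of these pairs, and 3.19% and 0.922% in the second, so the list counts other than that with tai are near the background. The list medians were -0.19, 0.20 and -0.08 in these pairs, where medians of all genes lay within 0.01 of 0. Cyp18a1, whose enzyme inactivates ecdysteroids, stood at 2.34, 8.43, 23.2 and 5.22 FPKM. It was highest in the library with the highest Eip93F and lowest in the control, where chinmo was lowest too. Smr, which encodes a corepressor of the ecdysone receptor, stood at 22.9, 15.9, 26.4 and 11.5 FPKM, lowest in Yki+Tai-IR as br was. The gene shd, for the enzyme that makes 20-hydroxyecdysone, stood at 0.685, 0.206, 1.23 and 0.332 FPKM.

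Ecdysone response genes moved in several directions. Of 28 measured, 9 were 2-fold lower and 1 higher in Yki against GFP, against 3.05% of all genes lower and 1.86% higher, with a median of -0.23. In Yki+Tai 5 were higher and 3 lower than in Yki, where 3.45% of all genes were 2-fold higher and 2.10% lower. In Yki+Tai-IR 4 were higher than in Yki and 0 lower, against 3.19% and 0.922% of all genes. The nuclear receptor gene Hr46 (Hr3), an early-late gene of the pathway, stood at 14.0, 4.28, 0.236 and 3.76 FPKM. Hr4, another nuclear receptor gene of this class, stood at 16.9, 6.27, 1.53 and 4.75 FPKM. Both were highest in the control and lowest in Yki+Tai, the library with the highest Eip93F.

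The gene Edg78E, for a pupal cuticle protein, was at 0.327, 1.24, 8.33 and 0.793 FPKM. ImpL3, which encodes lactate dehydrogenase, was at 9.63, 12.0, 68.1 and 48.2 FPKM. The first was high in Yki+Tai, as Eip93F was, and the second in that library and in Yki+Tai-IR. Further genes of this list were picked out after their values were seen. Edg84A, another pupal cuticle gene, was listed at 0 in GFP, Yki and Yki+Tai-IR and at 5.25 FPKM in Yki+Tai. Edg91, also of this list, was highest in GFP, at 9.76, 1.25, 4.61 and 9.65 FPKM. The ecdysone-inducible disc genes ImpE1 and ImpE2 had the same order of levels as br, at 122, 47.7, 92.2 and 46.4 FPKM and at 1636, 736, 1286 and 677. Another ImpE gene, ImpE3, had a different order, at 57.3, 27.0, 17.5 and 26.1 FPKM, lowest in Yki+Tai. The competence factor gene ftz-f1 had its low value in the control, as chinmo did, at 2.69, 9.62, 8.53 and 9.86 FPKM. Blimp-1, which encodes a repressor of ftz-f1, had its high value there, at 16.96, 9.75, 3.82 and 5.29 FPKM.

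**Figure D4:**
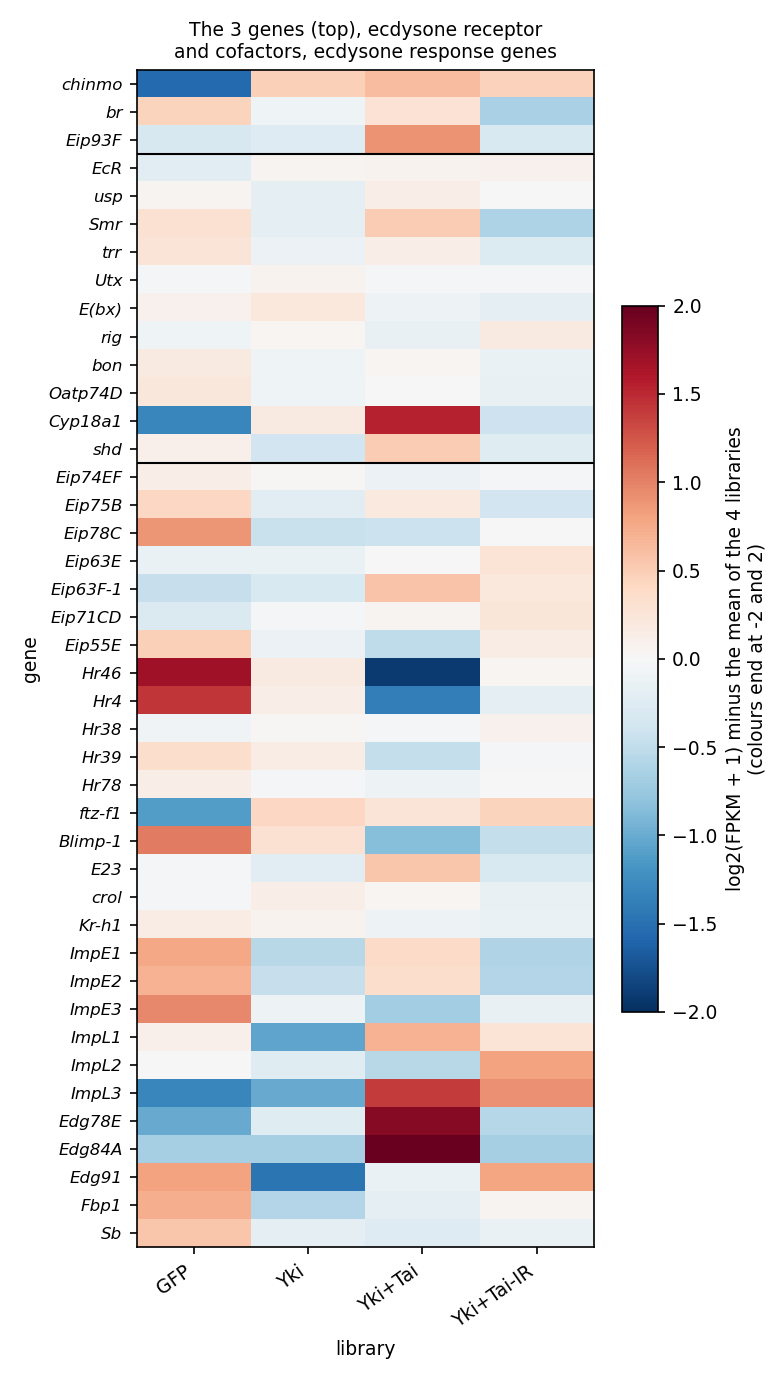
Heat map of log2(FPKM + 1) minus the mean of the 4 libraries (colour, ending at -2 and 2) in the GFP, Yki, Yki+Tai and Yki+Tai-IR libraries (columns) for chinmo, br and Eip93F (top), ecdysone receptor and cofactor genes without the transgene tai (middle) and ecdysone response genes (bottom), named as in the deposited table. The chinmo row is blue in GFP alone, the br row is bluest in Yki+Tai-IR as Smr is, and Eip93F, Cyp18a1, Edg78E and Edg84A are reddest in Yki+Tai, where Hr46 and Hr4 are bluest.

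Chinmo and Broad share the BTB zinc finger architecture with other transcription factors, of which 18 more were in the table and 16 measured (mean of 0.1 FPKM or more). With chinmo and br added, 20 genes, br ranked 3 by level with the construct against tai and 2 in each of the other libraries. The gene chinmo ranked 14 to 17 by level, and 1 by the spread of its log2(FPKM + 1) over the libraries, while br ranked 5 by spread. Of the 16, 0 were 2-fold higher and 2 lower in Yki against GFP, where 1.86% and 3.05% of all genes were. The genes bab2 and bab1, which pattern the leg, were lower there, at 8.50 against 36.5 FPKM and 0.634 against 3.01. CG3726 was at 2.02, 4.15, 9.34 and 4.64 FPKM, the 1 gene past 2-fold in Yki+Tai against Yki, where 3.45% of all genes were higher. The gene mamo was at 1.74, 1.44, 2.43 and 0.764 FPKM. Among 6 measured genes with a Pipsqueak domain like that of Eip93F, 0 were 2-fold higher in any pair with Yki+Tai as the first library, where 3.45% to 3.96% of all genes were, a count near that background. Lower by 2-fold in Yki+Tai against GFP were 2 of the 6, bab1 and bab2, where 3.51% of all genes were. Another of the 6, danr, stood at 0.534, 0.515, 1.08 and 0.370 FPKM.

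Genes known to act on chinmo elsewhere were measured too, as were temporal identity and juvenile hormone genes. The JAK-STAT pathway activates chinmo in the testis and eye disc. Of its 12 measured genes, 0 were 2-fold higher and 1 lower in Yki against GFP, the latter zfh1, at 2.30 against 6.83 FPKM, counts near the 1.86% and 3.05% of all genes. The median was -0.06. The ligand gene upd2 stood at 0.411, 0.462, 1.50 and 2.12 FPKM, and upd3 at 0.368, 0.724, 1.22 and 1.66. Both were lowest in the control, as chinmo was, and highest in Yki+Tai-IR. Between GFP and Yki, however, upd2 differed by 0.05 on the log2(FPKM + 1) scale, against 2.03 for chinmo. The STAT target and repressor gene ken was at 19.2, 22.4, 37.0 and 31.2 FPKM, also lowest in the control. The ligand gene os and the pathway gene Socs36E, picked out after their values were seen, were lowest in Yki. They stood at 5.59, 4.05, 4.17 and 7.92 FPKM and at 39.5, 27.1, 37.6 and 38.1. Among 10 measured temporal identity partners 0 were 2-fold higher and 1 lower in Yki against GFP, again near the shares of all genes, the latter the Sox gene D, listed at 0 against 1.62 FPKM. The nuclear receptor gene svp was at 8.79, 5.14, 12.3 and 6.02 FPKM and the BTB gene ab at 43.0, 60.9, 77.9 and 71.6, lowest in the control. The RNA-binding protein genes Imp and Syp, which act on chinmo transcript in neurons, were picked out after their values were seen. Imp stood at 18.5, 28.5, 21.5 and 19.5 FPKM, lowest in the control, and Syp, listed as CG17838, at 203, 176, 167 and 115, lowest in Yki+Tai-IR. Of 8 measured juvenile hormone pathway genes, 0 were 2-fold different in Yki against GFP and in Yki+Tai against Yki, near the shares of all genes. Higher by 2-fold in Yki+Tai-IR were 2 of the 8 against GFP and 1 against Yki, where 3.24% and 3.19% of all genes were. Jheh3, a juvenile hormone epoxide hydrolase gene, was at 0.545, 0.153, 0.176 and 2.82 FPKM and JhI-26 at 2.32, 2.60, 3.30 and 5.80.

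Growth and wound genes held a few that were high in the Yorkie libraries, as chinmo was. Of 19 regeneration and wound genes, 2 were 2-fold higher and 0 lower in Yki against GFP, where 1.86% of all genes were higher and 3.05% lower. These were CG14059 (Ilp8), a relaxin-like peptide gene, at 0.188, 26, 30.9 and 9.66 FPKM, and the dual oxidase maturation factor gene mol, at 2.04, 10.3, 6.59 and 9.88. Ilp8 was lower in Yki+Tai-IR than in Yki, whereas chinmo was at 0.997 times. In the same list the inhibitor gene Timp was at 6.96, 4.17, 11.6 and 6.52 FPKM and the growth factor gene Pvf1 at 3.49, 6.63, 8.32 and 3.45. Of 13 Yki targets, yki included, 4 were 2-fold higher and 0 lower in Yki against GFP, set against the same shares, with a median of 0.25. The upstream Hippo-pathway gene ex, a target of Yki, stood at 104, 222, 349 and 143 FPKM, and kibra, another, at 14.1, 33.8, 87.4 and 28.5. Both were higher with Taiman added, a step that was 1.12-fold for chinmo.

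Genes linked to the later factors were mixed. Of 10 measured cuticle markers, 6 were 2-fold higher and 0 lower in Yki+Tai against Yki, where 3.45% of all genes were higher and 2.10% lower. In Yki+Tai-IR against Yki 6 were higher and 0 lower, where the shares were 3.19% and 0.922%. Against GFP, 5 of the 10 were 2-fold lower in Yki and 0 higher, where the shares were 3.05% and 1.86%. In Yki+Tai against GFP 3 were higher and 4 lower, where the shares were 3.96% and 3.51%. In Yki+Tai-IR against GFP 2 were higher and 2 lower, where the shares were 3.24% and 1.55%. Ddc, which encodes the dopa decarboxylase needed for cuticle hardening, was at 1.60, 2.90, 16.8 and 4.53 FPKM. Pcp, picked out after its values were seen, was highest in Yki+Tai-IR, at 0.729, 0.410, 1.72 and 1.88 FPKM. The larval cuticle genes Lcp1 and Lcp4 were highest in the control, at 30.0 and 9.06 FPKM, against 0.972 in Yki for Lcp1 and a value listed at 0 for Lcp4. Autophagy genes, which Eip93F controls in the dying salivary gland, numbered 18 measured, of which 0 were 2-fold different in any of the 6 pairs, where 0.922% to 4.43% of all genes were in each direction. Atg12 stood at 13.2, 21.3, 18.3 and 21.1 FPKM and Atg9 at 14.3, 13.1, 17.5 and 12.2. Of 9 measured apoptosis genes, 0 were 2-fold different in any pair, again near those shares. The death inducer gene rpr was at 24.6, 23.3, 18.8 and 35.4 FPKM, lowest in Yki+Tai, and the phagocytosis receptor gene crq at 20.7, 41.1, 32.5 and 32.1.

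Other tissues were examined through their markers, since discs are dissected with adhering cells. Of 8 hemocyte markers, 4 were 2-fold higher and 0 lower in Yki+Tai against Yki, against 3.45% and 2.10% of all genes, in the library where Eip93F was highest. Their summed level was 49.0, 57.3, 81.4 and 50.3 FPKM. Most of that sum was crq and Cg25C (Col4a1) in every library, so it does not track the other markers. Between GFP and Yki the sum rose, while 7 of the 8 markers fell and only crq rose. Between Yki and Yki+Tai 7 of the 8 rose and crq fell, from 41.1 to 32.5 FPKM. The marker with the largest difference of the 8, nimC1, stood at 0.539, 0.341, 7.70 and 0.719 FPKM. None of the 8 was listed at 0 in any library. The part of hemocytes in the Eip93F value was not tested. Salivary gland glue genes went the other way, with a sum of 0.786, 10.6, 0.653 and 13.0 FPKM, and fat body genes summed to 21.8, 16.2, 11.1 and 20.7. The leg disc genes summed to 145, 0.752, 33.0 and 114 FPKM, high in both the library with the lowest chinmo and 1 of those with high chinmo. Myoblast genes summed to 101, 48.8, 37.2 and 66.2 FPKM and neuroblast genes to 26.5, 13.2, 11.9 and 20.2, highest in GFP, where chinmo was lowest. Neuron markers summed to 11.1, 11.6, 8.80 and 9.65 FPKM, and glia markers to 125, 143, 123 and 164. Trachea, muscle and ring gland markers summed to 199 to 281, 14.4 to 40.9 and 4.55 to 7.86 FPKM over the libraries. Most of the neuron sum was elav, most of the neuroblast sum dpn, most of the glia sum nrv2, and most of the trachea sum vvl and uif. Of the 5 neuroblast markers 3 were lower in Yki+Tai than in GFP, dpn among them, and 2 were higher. The glia gene repo and the trachea gene btl were picked out after their values were seen. They stood at 0.221, 0.187, 0.114 and 0.515 FPKM and at 3.47, 2.15, 1.27 and 2.80. The repo levels are low, as 3 fragments on a 2 kb transcript correspond to 0.134 to 0.208 FPKM. While btl was lower in Yki+Tai than in GFP, the other 3 of 4 trachea markers were higher. Of 5 glia markers 4 were lower in that pair, repo among them, and 1 was higher. In the list for the haltere disc, which lies beside the wing disc, Ubx made up nearly all of a sum of 66.1, 121, 77.7 and 96.7 FPKM. The part of these tissues in the chinmo and br values was not tested.

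The genes with the profile most like each factor were found by the distance between centred log2(FPKM + 1) values over the 4 libraries, among the 7806 genes. With 4 points such likeness is common and is given as a description. For chinmo these were CG30108, at 1.32, 7.87, 10.8 and 8.82 FPKM, the heat shock gene Hsp70Bbb, CG42773, CG13188 (exp) and CG11750 (Pa1), at distances of 0.19 to 0.32. Hsp70Bbb has near-identical copies, so its value depends on how fragments were shared. For br they were CG14410, the CBP histone acetyltransferase gene nej, the kinase gene nmo, the Iroquois homeobox gene mirr and the noncoding RNA gene CR33963, at distances of 0.048 to 0.15. The nej level was 28.9, 20.3, 28.5 and 14.9 FPKM and that of mirr 40.4, 25.4, 35.3 and 19.7, lowest in Yki+Tai-IR as br was. For Eip93F they were CG42777, CG6762 (Srx), inv, CG10512 and CG12206, at distances of 0.092 to 0.14. The posterior selector gene inv was at 39.0, 37.2, 81.8 and 35.8 FPKM, a ratio of 2.20 between Yki+Tai and Yki against 14.6 for Eip93F, since 1 added FPKM compresses the low values of Eip93F. With 0.1 added, 1 of the 5 genes for chinmo, 3 of the 5 for br and 0 of the 5 for Eip93F stayed in the list. The genes nearest to Eip93F were then Gyc-89Da, at 0.758, 0.693, 7.67 and 0.980 FPKM, Cyp6g2, Cyp6t3, CG32055 and CG7924.

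**Figure D5:**
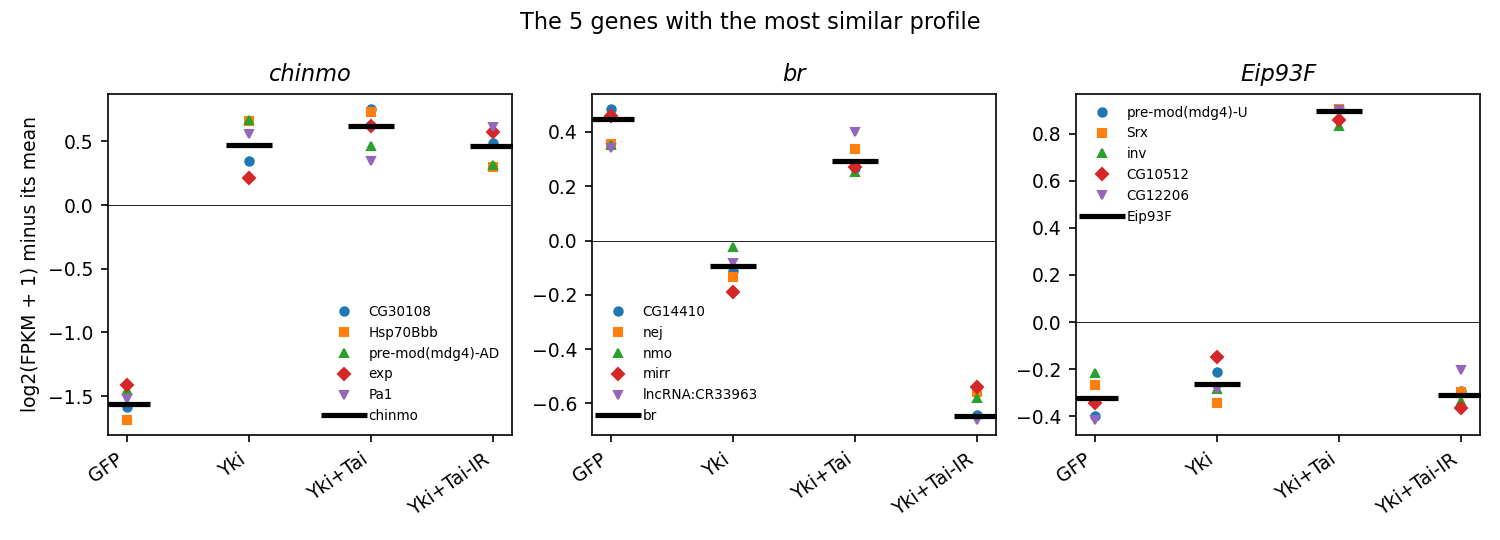
Log2(FPKM + 1) minus its mean over the 4 libraries (y axes) in GFP, Yki, Yki+Tai and Yki+Tai-IR for chinmo, br and Eip93F (black bars) and the 5 genes nearest to each (coloured symbols, current gene symbols). The chinmo group is low in GFP alone, the br group is high in GFP and Yki+Tai and lowest in Yki+Tai-IR, and the Eip93F group is high in Yki+Tai alone.

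Genes next to the 3 factors were set beside them in a pair of libraries in which the factor itself differed. The 3 nearest protein-coding genes of the table on each side were compared. Next to chinmo, cpb, an actin-capping protein gene 0.22 kb away, stood at 110, 113, 101 and 104 FPKM, and the 6 neighbours differed by -0.21 to 0.51 between Yki and GFP on the log2(FPKM + 1) scale, against 2.03 for chinmo. Next to br, the vacuolar sorting gene dor, 0.183 kb away, was at 19.2, 16.3, 17.7 and 15.4 FPKM, the same order as br, with a difference of -0.30 between Yki+Tai-IR and GFP against -1.09 for br. The neighbours CG3740 and hfw were lower in Yki and Yki+Tai-IR than in the other libraries, by at most 0.31. Of the 6 neighbours of br, 1 differed by over 1 between Yki+Tai-IR and GFP, CG14795, higher by 1.40 where br was lower by 1.09. Next to Eip93F, CG6439 stood at 50.2, 43.0, 42.5 and 44.1 FPKM, and the 6 neighbours differed by -0.31 to 0.19 between Yki+Tai and Yki, against 1.16 for Eip93F.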

How the data were processed

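The deposited values are FPKM for 13990 genes in 4 libraries, per the file headers, scaled by the authors to transcript length and library size. Per the submitters' processing notes, the build was dm6 and the tools were Cuffdiff 2.2.1, TopHat2 2.0.12 and CASAVA 1.4; their options and the annotation are not stated in those notes. Per the labels' protocols, 4 µg of total RNA without ribosomal RNA entered each library, made with a kit that does not mark strand, from larvae raised at 25 °C.

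The members and gene lists were chosen with earlier results of these data known. The Ensembl release 115 annotation of dm6 gave the symbols (13662 matched, 3133 through an older symbol, 328 not), and 314 small-RNA genes were left out. FPKM is relative, so abundant genes in a library depress the others, and an exact 0 can be a failed estimate, so genes at 0 are called listed at 0. Depth was estimated from low FPKM of 1121 to 1164 single-transcript genes with 210 nt subtracted from the transcript length; 72.5% to 74.8% of values were whole numbers within a tolerance of 0.08, where 16% would be by chance. On a 2 kb transcript 3 fragments correspond to 0.134 to 0.208 FPKM. Fragments of the 3 genes were estimated from the longest transcript, or the shortest as an alternative. Intervals are exact (Clopper-Pearson for ratios, Poisson for levels) at 95% and cover counting error only. There is 1 library per genotype, so no test was run.

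The named genes are the 3 members, the 2 to 4 members of each of 12 lists with the largest difference in any of 6 pairs, and the 5 nearest profiles of each member; others are named as picked out later. Of the listed genes, 5 did not match the table, besides 1 marker gene. Alternatives were pseudocounts of 0.1 and 5, no filter or a mean of 5 FPKM, and scaling to equal FPKM sums or by the median ratio. The steps were tested on simulated data. Python 3.11.15 was used with pandas 2.3.3, numpy 2.4.6 and scipy 1.17.1, and matplotlib 3.10.9 drew the figures.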

Additional observations from a re-analysis of the deposited data

How the results depend on the processing

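The direction of every ratio of chinmo, br and Eip93F whose interval excludes 1 was kept under both rescalings, and the 18 ratios rescaled by the median ratio stayed within their intervals. Rescaled to the same FPKM sum, 4 of the 18 left their longest-transcript intervals, all for br: 0.448 in Yki+Tai-IR against GFP, 1.28 in Yki+Tai against Yki, 0.644 in Yki+Tai-IR against Yki and 1.99 in Yki+Tai against Yki+Tai-IR. Of these, 1.28 and 1.99 lie within the shortest-transcript intervals, 1.27 to 1.35 and 1.85 to 2.00. With 5 added in place of 1, Eip93F no longer passed 2-fold in Yki+Tai, at differences of 0.352 against GFP, 0.339 against Yki and 0.349 against Yki+Tai-IR, because the value added exceeds its level; the other 15 differences kept their side of the limit, as all 18 did with 0.1 added.

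Counts over all genes depend on the pseudocount. In Yki against GFP 145 genes were 2-fold higher and 238 lower. With 5 added these were 58 and 96, with a mean of 5 FPKM 92 and 129, and with 0.1 added 235 were higher. In Yki+Tai against GFP 309 were higher and 274 lower, against 165 and 130 with 5 added and 175 and 173 with a mean of 5 FPKM. In Yki+Tai-IR against GFP 253 were higher and 121 lower, against 124 and 42, and 139 and 70; with 0.1 added 219 were lower. In Yki+Tai against Yki 269 were higher and 164 lower, against 129 and 65 with 5 added; with a mean of 5 FPKM 134 were higher, and with 0.1 added 247 were lower. In Yki+Tai-IR against Yki 249 were higher and 72 lower, against 89 and 27, and 99 and 38; with 0.1 added 150 were lower. In Yki+Tai against Yki+Tai-IR 290 were higher and 346 lower, against 154 and 149, and 174 and 200. Of the list counts and medians, 51 of 216 moved with 0.1 added, 50 with 5 added and 2 when rescaled by the median ratio. No paired analysis was possible because each genotype has 1 library.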
